A study of Rattus norvegicus with 6 samples.

Results

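The mRNAs of the cytosolic ribosomal proteins were followed through a sucrose gradient of rat liver, with the proteins of the large (Rpl) and the small (Rps) ribosomal subunit compared. Members were chosen by their gene symbol alone, as Rpl or Rps with a number and, for some, a letter or a paralogue ending, plus Rplp0, Rplp1, Rplp2 and Rpsa. The deposited table held 79 such symbols among 32158 loci with a symbol, 50 for the large and 29 for the small subunit. Where a symbol stood on more than 1 locus (12 symbols), the locus with the highest mean was taken. A mean of at least 1 FPKM (sequenced fragments scaled by transcript length and by library size) over the libraries was met by 64 members, 39 large and 25 small, among 10201 loci that met it in all.

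Livers came from male obesity-prone Sprague Dawley rats that had eaten 1 of 2 diets for 2 weeks and had been fasted overnight and then refed before sampling. The CD was the control diet TD 08485, and the WD was TD 88137, a Western diet. Age is not in the labels. For each diet, total RNA was sequenced beside RNA of a light gradient fraction (mRNAs with 3 or fewer ribosomes) and of a heavy fraction (4 or more ribosomes). Each of these 6 groups was 1 library of RNA pooled from 3 rats, so no group has a replicate, no difference below was tested, and the spread between rats is unknown. The heavy to light ratio is the FPKM in the heavy fraction over that in the light fraction, and ribosome density is the WD to CD ratio of that quantity. FPKM sums over loci with a symbol differed between libraries, at 867734 in the light and 700724 in the heavy fraction of the WD. On the CD they were 679535 and 689208. A ratio below 1 thus means a lower FPKM in the heavy than in the light fraction, which need not be a smaller share of the library. It does not give the part of an mRNA that lies in either fraction. Ratios of at most 0.75 and at least 1.5 were counted, and log2 values were taken of FPKM + 0.1.

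A ribosome consists of a small subunit, which binds the mRNA and reads its codons, and a large subunit, which joins amino acids into the chain. Ribosomal protein mRNAs are short, abundant and encoded by many scattered genes, and most begin with a C followed by a run of pyrimidines, the 5′ terminal oligopyrimidine (TOP) motif. Translation of TOP mRNAs is known to depend on the kinase complex mTORC1, and such mRNAs move between small complexes and polysomes when nutrients change. The genome also holds many processed copies of ribosomal protein genes, and reads can be divided among copies that are nearly identical.

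The annotated starts of some of these mRNAs are shown because the start carries the TOP motif. Sequences are RefSeq's for the rat assembly GRCr8, while the deposited loci are on Rnor_6.0. Each window is 30 bases long, 10 before and 20 from the annotated start, in the direction of transcription, and capitals mark a C that lies no more than 5 bases from the start and the run of at least 4 C or T that follows it.
Rps18: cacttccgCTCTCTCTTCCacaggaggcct
Rps27: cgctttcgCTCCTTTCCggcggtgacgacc
Rpl12: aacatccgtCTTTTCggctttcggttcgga
Rplp0: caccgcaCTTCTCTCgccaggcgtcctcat
Rplp1: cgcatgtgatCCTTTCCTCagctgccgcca
Rpl18: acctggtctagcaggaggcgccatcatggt
Rps15a: ttttctttccacagtcaccatggtgcgaat
Rpl24: tagggaggagattctctaccctataaggtg

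The first 5, shown for their run, had less FPKM in the heavy than in the light fraction of both diets. The last 3, shown for their higher CD ratios, carry none by this rule, though in Rps15a such a run begins just beyond the 5 bases allowed. The 8 windows were picked and show no relation: Rps27l (log2 CD ratio -2.92) and Rpl41 (-1.75) carry no run, and Rpl23 (0.10) carries a run. The window of Rps18 is chr20:4933735-4933764 on the plus strand and that of Rpl12 is chr3:36661930-36661959 on the plus strand. On the minus strand lie those of Rps27 (chr2:177964587-177964616), Rplp0 (chr12:46718371-46718400) and Rplp1 (chr8:71290853-71290882). Rpl18 (chr1:105325260-105325289) is on the plus strand, and Rps15a (chr1:181860265-181860294) and Rpl24 (chr11:58128386-58128415) are on the minus strand. A run of this kind was found at 33 of the 59 members that have an entry (55.9%), at 21 of 39 large and 12 of 20 small subunit genes, and at 15.6% of 27457 promoters in the table. The transcribed strand alone was searched, and a start that differs from the annotated one would place the window elsewhere. For 7 of the 59 the window lies on another chromosome than the deposited locus, among them Rpl37 and Rpl39, and no window is shown for these.

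The light fraction of the WD stood apart from the other libraries. Its depth, inferred from the steps between FPKM values, was 2.34 times that of the CD heavy fraction, against 1.02 to 1.57 for the other 4 libraries. The fragments inferred for members numbered 5706 in it and between 617 and 1562 in the others, so counting error is wide for members of low level. Of the 64 members, 46 had their highest FPKM in the WD light fraction (28 large and 18 small), beside 20.1% of all loci compared. Of these 64, 6 met the mean of 1 FPKM through the WD light fraction alone (Rpl10a, Rpl27, Rpl30, Rpl36, Rps19 and Rps2) and so had to be high there. With the filter set on total RNA instead, an alternative chosen after seeing the data, 57 members and 10018 loci were kept, and 40 of the 57 (70.2%) were highest in the WD light fraction, beside 18.6% of those loci. All 8 hepatocyte markers passed the filter, with summed levels of 76497 to 84490 FPKM in total RNA. Of 6 erythroid markers, 4 were found, and 3 of these 4 were higher in the WD than in the CD light fraction. They summed to 292 FPKM there, led by the globin Hbb with 242 FPKM, while their sums elsewhere ranged from 11.2 to 40.6 FPKM. The T and B cell markers Cd3e, Cd3d and Ms4a1 were at most 1.33 FPKM in each library, and Adipoq, Plin1 and Lep were listed at 0, while Cidec, a lipid droplet protein on the same adipocyte list, ranged from 13.3 to 35.4 FPKM and was highest in the CD light fraction. The part of these differences in the values of the WD light fraction was not tested, and results that use it are given beside those of the heavy fraction over total RNA.

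Of the 79 members, 14 were listed at 0 in all 6 libraries: Rpl22, Rpl34l1, Rpl35a, Rpl38, Rpl39l, Rpl3l, Rpl5l1, Rpl7a, Rpl8, Rplp2, Rps17l, Rps19l1, Rps4x and Rps6. Rpl31, with a mean of 0.675 FPKM, was the other member under the filter. Rpl7a, Rpl8, Rps4x and Rps6 are parts of every ribosome, and Rps6 is the protein whose phosphorylation reports mTORC1 signalling. These 0 values are entries in the table and give no level. A further 16 members (9 large, 7 small) were listed at 0 in at least 1 library, compared with 17.1% of all loci compared, and 6 were at 0 in both total RNA libraries, compared with 1.87%.

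Under the CD, ribosomal protein mRNAs had lower FPKM in the heavy than in the light fraction, with close medians in both subunits when all levels were pooled. The median log2 heavy to light ratio was -0.84 for the 39 large and -0.81 for the 25 small subunit members, against 0.01 over all loci compared. A heavy to light ratio of 0.75 or less was found for 35 members, where all loci gave 36.6%, and these were 20 of 39 large (51.3%) and 15 of 25 small (60%). A ratio of at least 1.5 was found for 6 members, 4 large and 2 small, against 32.9% of all loci. Without the 16 members listed at 0 in a fraction, the medians were -0.90 for 30 large and -0.97 for 18 small subunit members. Beside total RNA, both fractions contributed: the median log2 of light over total was 0.40 for large and 0.52 for small members, and that of heavy over total was -0.15 and -0.57.

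The share of such members was highest where the mRNA level was highest, at 18 of 22. It was 11 of 25 at a middle level and 6 of 17 at a low one, beside 34.8% and 38.7% of all loci at those levels. The low share cannot be compared with that of loci, since 7 of those 17 were listed at 0 in both CD fractions. The 0.1 FPKM added set their ratio at 1, and some of them were kept by the WD light fraction alone. Levels in total RNA were divided at 10 and 100 FPKM after values had been seen. Of the 22 members with at least 100 FPKM in total RNA, 18 had a CD heavy to light ratio of at most 0.75, 10 of 11 large and 8 of 11 small, against 24.7% of the 587 loci at that level. None of the 22 reached 1.5, which 41.6% of those loci did. Their median log2 ratio was -1.33, and that of all loci at that level was 0.37, and by subunit it was -1.48 for large and -0.81 for small members. Between 10 and 100 FPKM the order was the other way, at -0.20 for 17 large and -1.67 for 8 small members. Large members also had lower levels, with a median of 22.7 FPKM in CD total RNA against 92.1 for small members. Medians over all levels thus mix subunit with level. The 4 abundant members above 0.75 included Rpl18, Rps14 and Rps15a, and the ratio of Rps14 was 0.755.

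**Figure D1:**
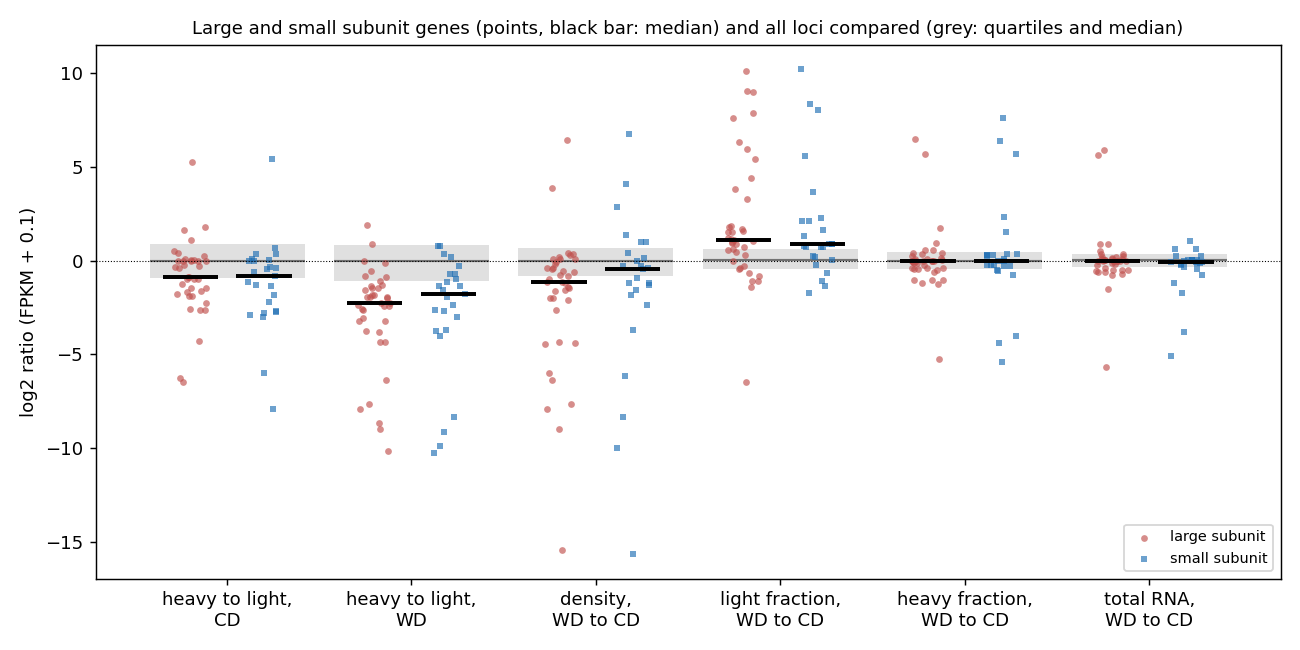
Log2 ratios of FPKM + 0.1 (vertical axis) for 6 comparisons, with each large subunit gene as a red circle, each small subunit gene as a blue square, black bars at the subunit medians, and grey boxes at the quartiles of 10201 loci. In the heavy to light comparisons the black bars lie below the grey medians for both subunits, at -0.84 and -0.81 on the CD and at -2.25 and -1.75 on the WD, while the bars for the heavy fraction and total RNA lie near 0.

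The most abundant members differed among themselves. Rpl41, the shortest protein of the large subunit (chr7:2972900-2973977 on Rnor_6.0), had 1281 and 1272 FPKM in total RNA of the CD and WD, 3193 and 2650 in the light fraction, and 950 and 983 in the heavy fraction. Its level was thus highest in the light fraction of both diets, with heavy to light ratios of 0.297 and 0.371. Rpl39, another very short protein, which lies beside the exit tunnel, had 822 and 867 FPKM in total RNA, 2180 and 1012 in the light and 464 and 194 in the heavy fraction. Both fractions of Rpl39 were lower in the WD, at 0.464 and 0.418 of the CD level, and total RNA was 1.05 times as high. This symbol stands on 7 loci, so its reads may be shared.

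Rpl18 (chr1:101701975-101703550) went the other way among abundant large subunit members. It had 584 and 580 FPKM in total RNA of the CD and WD, 600 and 457 in the light, and 868 and 837 in the heavy fraction. Its heavy to light ratio was 1.45 on the CD and 1.83 on the WD, so it was higher in the heavy fraction in both. Rps29, a small zinc-binding protein of the small subunit, had the highest level of all members in total RNA, with 1604 and 1540 FPKM, beside 5328 and 2550 in the light and 810 and 992 in the heavy fraction. Its CD light fraction was the highest of the 6 libraries, and Rps29 stands on 4 loci. Rps25 (chr8:48727618-48729580) had 528 and 631 FPKM in total RNA, 1354 and 403 in the light and 877 and 525 in the heavy fraction. Its light fraction in the WD was 0.297 of that in the CD, the lowest such ratio among members above 0 in both. Rps15 (chr7:12282109-12283608) had 549 and 508 FPKM in total RNA, 1054 and 1101 in the light and 780 and 666 in the heavy fraction, with little difference between the diets in any.

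The lowest CD heavy to light ratios in the large subunit, among members on 1 locus that were above 0 in each fraction with a mean of at least 10 FPKM, belonged to Rpl23a, Rpl12 and Rpl41. Rpl23a (chr10:65439102-65444001), which sits at the tunnel exit, had 430 FPKM in the light and 68.2 in the heavy fraction of the CD, and 161 and 29.6 in those of the WD. From inferred fragments, its ratio was 0.158 with a 95% counting interval of 0.091 to 0.261 on the CD, and 0.184 with 0.077 to 0.377 on the WD. Rpl12 (chr3:12009578-12011666), which lies at the base of the stalk that recruits translation factors, had 89.8 FPKM in the light and 14.3 in the heavy fraction of the CD, and 291 and 20.9 in those of the WD. Its ratios were 0.159 (0.040 to 0.457) on the CD and 0.072 (0.026 to 0.160) on the WD, with total RNA at 118 and 80.8 FPKM. Such intervals are Clopper-Pearson intervals that cover counting error only and compare libraries, not diets.

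At the other end of the large subunit on the CD stood Rpl10l, Rpl24 and Rpl22l1. Rpl10l, a copy-like relative of Rpl10, had 8.71 FPKM in the light and 31.2 in the heavy fraction of the CD, and 4.01 and 15.2 in those of the WD. It was the sole member of these with more in the heavy fraction of both diets, at ratios of 3.58 and 3.80, yet it rested on 3 light fragments in each. Rpl24 (chr11:47116886-47122095), which helps to bridge the subunits, had 4.16 FPKM in the light and 13.4 in the heavy fraction of the CD, from 1 and 3 fragments. In the WD it had 266 FPKM in the light fraction and 13.1 in the heavy fraction, from 139 and 3 fragments. Its total RNA was 22.7 and 14.9 FPKM, and the WD light fraction was far above the other 5 libraries.

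In the small subunit, the lowest CD heavy to light ratios included those of Rps27l and Rps18. Rps18 (chr20:5442390-5445509), at the head of the small subunit, had 41.2 and 64.6 FPKM in total RNA of the CD and WD, 226 and 423 in the light, and 32.4 and 26.3 in the heavy fraction. Its ratio was 0.143 (0.050 to 0.337) on the CD and 0.062 (0.020 to 0.148) on the WD. Rps27l, a paralogue of Rps27, had 134 and 106 FPKM in total RNA, 151 and 380 in the light, and 19.8 and 99.4 in the heavy fraction, so both fractions were higher in the WD.

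The highest CD ratios of the small subunit were those of Rps20, Rps15a and Rps3. Rps15a (chr1:187759901-187765744) had 251 and 243 FPKM in total RNA, 360 and 227 in the light and 466 and 392 in the heavy fraction. With ratios of 1.29 (0.887 to 1.89) on the CD and 1.73 (1.2 to 2.48) on the WD, it was the one member whose WD interval lay above 1. Rps3 (chr1:164435878-164441167), at the mRNA entry channel, had 103 FPKM in the light and 131 in the heavy fraction of the CD, and 171 and 88.3 in those of the WD. Its ratio was thus 1.27 (0.854 to 1.90) on the CD and 0.515 (0.356 to 0.730) on the WD. Rps20 had 16.4 and 26.4 FPKM in the light and heavy fractions of the CD, from 2 and 3 fragments, and 207 and 25.8 in those of the WD.

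Over all members with inferred fragments, the CD heavy to light interval lay below 1 for 19 of 41 and above 1 for 0. The corresponding shares were 14.9% and 14% of 7720 loci. By subunit, 11 of 25 large and 8 of 16 small members were below 1.

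**Figure D2:**
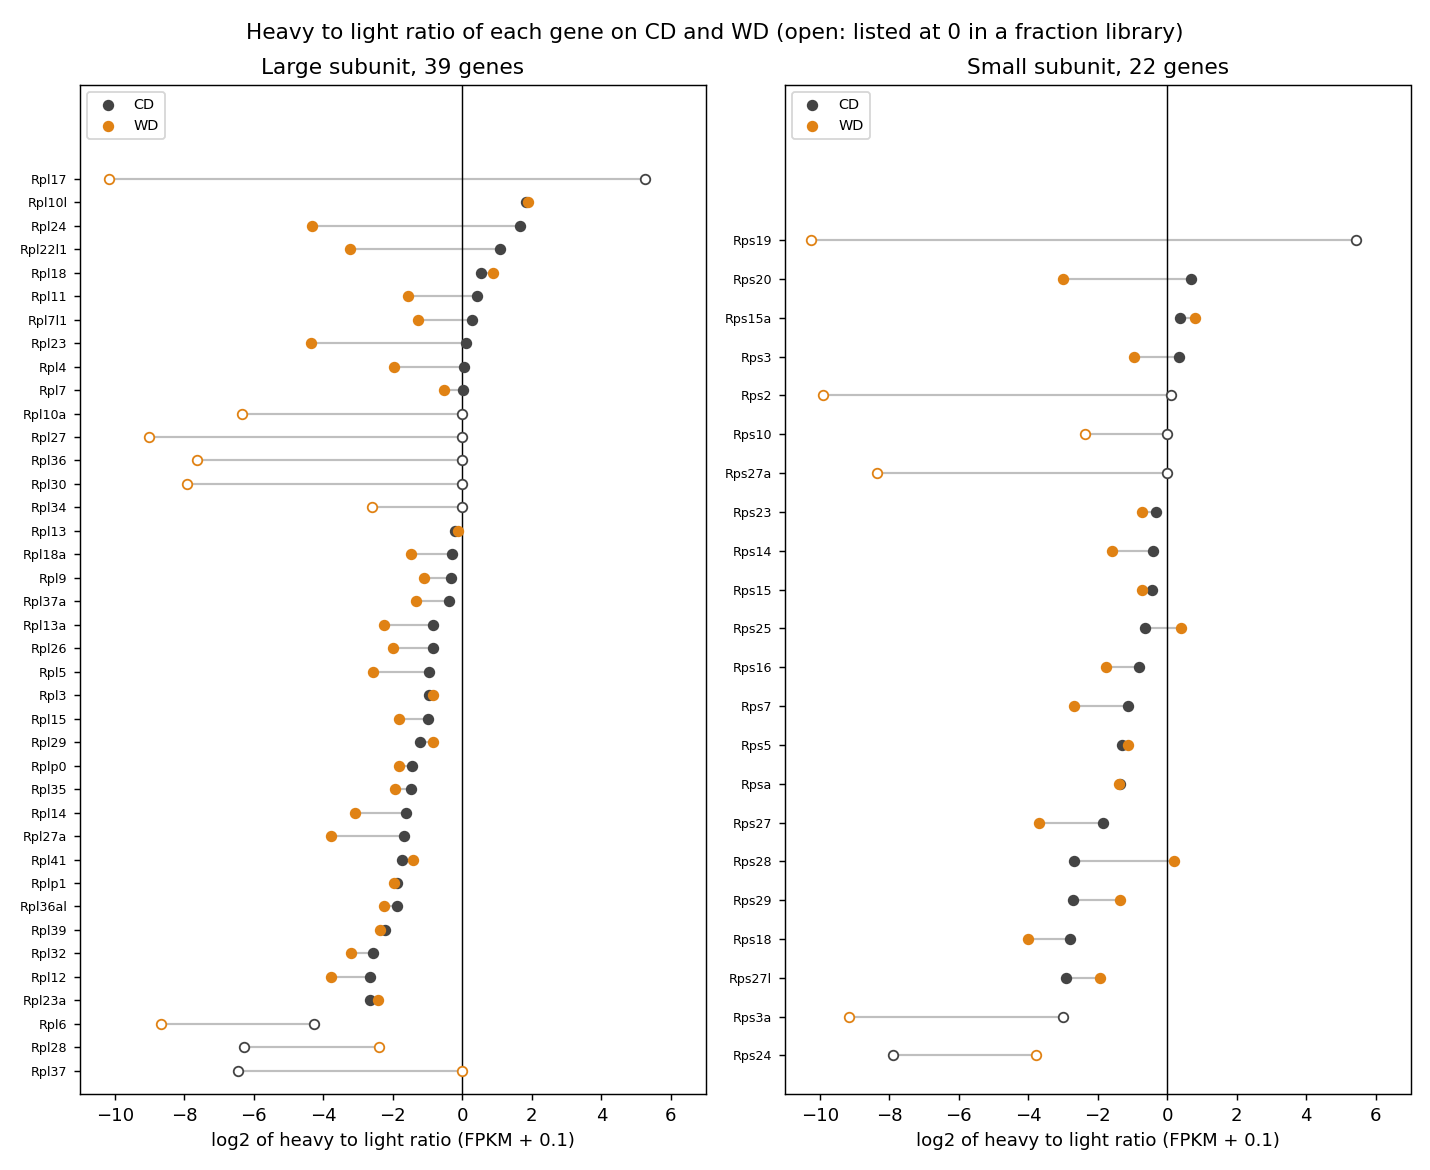
Log2 heavy to light ratio of FPKM + 0.1 (horizontal axis) for 39 large (left) and 22 of the 25 small (right) subunit genes, with the CD as dark and the WD as orange points joined by a line, and open points for genes listed at 0 in a fraction library. Most lines run to the left from CD to WD: 47 of the 64 genes compared had the lower value on the WD, 6 of them kept by the WD light fraction alone. So did 35 of the 48 genes above 0 in all 4 fraction libraries.

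On the WD the heavy to light ratios of members were lower still, with 47 of 64 at a lower ratio than on the CD (50.7% of all loci compared). These 47 include the 6 members kept by the WD light fraction alone, for which the filter favoured a lower ratio. Among the 48 members above 0 in all 4 fraction libraries, 35 had the lower ratio on the WD, beside 4265 of 8588 such loci. The median log2 heavy to light ratio was -2.25 for large and -1.75 for small subunit members, with 0.00 over all loci compared. With libraries rescaled to the same FPKM sum, the medians of members were -1.94 for large and -1.44 for small. A ratio of 0.75 or less was found for 55 of 64 members (35 large, 20 small), where all loci gave 38.5%, and one of at least 1.5 for 4 (2 large, 2 small), where all loci gave 31.4%. Among members above 0 in all 4 fraction libraries the medians were -1.94 for large and -1.37 for small. Counting intervals lay below 1 for 35 of 43 members, 22 of 25 large and 13 of 18 small, and above 1 for 1, Rps15a, whereas 18.9% and 17.3% of 7843 loci did so. At 100 FPKM or more in total RNA, 18 of 22 members had a WD ratio of at most 0.75, against 22.3% of loci at that level, which is the same number as on the CD. Between 10 and 100 FPKM the WD medians were -1.96 for large and -2.66 for small members, the reverse of the order over all levels. With the filter on total RNA, 49 of 57 members were at most 0.75 (38.2% of such loci), with medians of -1.98 for large and -1.58 for small members.

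Set against total RNA instead of the light fraction, heavy fraction levels showed no such shift. The median log2 of heavy over total was 0 for large and -0.10 for small members on the WD, above the CD values of -0.15 and -0.57. A heavy to total ratio of 0.75 or less was found for 30 members on the CD and 22 on the WD, beside 34.1% and 35.1% of all loci. One of at least 1.5 was found for 16 and 11, beside 29.3% and 27.7%.

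The lowest WD ratios in the large subunit were those of Rpl23, Rpl24 and Rpl12, and the highest those of Rpl10l, Rpl18 and Rpl13. Rpl23 (chr10:85721394-85725429), also known to bind the p53 regulator Mdm2, had 7.09 FPKM in the light and 7.62 in the heavy fraction of the CD, from 1 fragment each. In the WD it had 307 FPKM in the light and 14.9 in the heavy fraction, while its total RNA was 14.6 and 10.1 FPKM. Rpl13 had 138 and 120 FPKM in the light and heavy fractions of the CD and 102 and 92.6 in those of the WD, with ratios of 0.868 and 0.912. In the small subunit the lowest were Rps18, Rps27 and Rps20, and the highest included Rps15a and Rps25. Rps27 (chr2:189572176-189573280), a zinc finger protein, had 280 and 1213 FPKM in the light fraction of the CD and WD, against 77.6 and 94.7 in the heavy fraction and 259 and 232 in total RNA. The WD light fraction was higher than every other library of Rps27, at 4.33 times the CD light fraction (interval 2.99 to 6.49).

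The question of what the WD changed was then followed through each compartment. In total RNA the diets had medians near each other: the median log2 WD to CD ratio was 0 for large and -0.04 for small subunit members, and 0.02 over all loci. A total RNA ratio of 0.75 or less was found for 16 members, beside 22.7% of all loci, and of at least 1.5 for 7, beside 17.7%. Counting intervals of the total RNA ratio included 1 for 42 of 43 members. Over all loci, 8.86% of 7824 such intervals did not. The exception was Rpsa, the laminin receptor protein of the small subunit, with 131 FPKM in the CD and 77.3 in the WD. In bulk liver RNA, fewer cells of a type and less RNA per cell cannot be told apart.

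Most of the difference between the diets lay in the light fraction. Its median log2 WD to CD ratio was 1.09 for large and 0.87 for small members, against 0.02 over all loci. A ratio of at least 1.5 was found for 43 members (26 of 39 large and 17 of 25 small), where all loci gave 25.9%, and one of at most 0.75 for 11, where all loci gave 26.8%. With the filter on total RNA, 37 of 57 members reached 1.5 (25% of such loci), and the medians were 1.04 and 0.78. Counting intervals lay above 1 for 30 of 43 members and below 1 for 4, against 9.74% and 8.24% of 7825 loci. Those below 1 were Rpl23a, Rpl29, Rpl39 and Rps15a. The heavy fraction differed little: its median log2 ratio was 0 in each subunit, 16 members were at most 0.75 (all loci 25.8%) and 9 at least 1.5 (all loci 21.7%), and the interval included 1 for 40 of 41 members, leaving out Rpl39, while 9.17% of 7636 loci had an interval without 1.

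**Figure D3:**
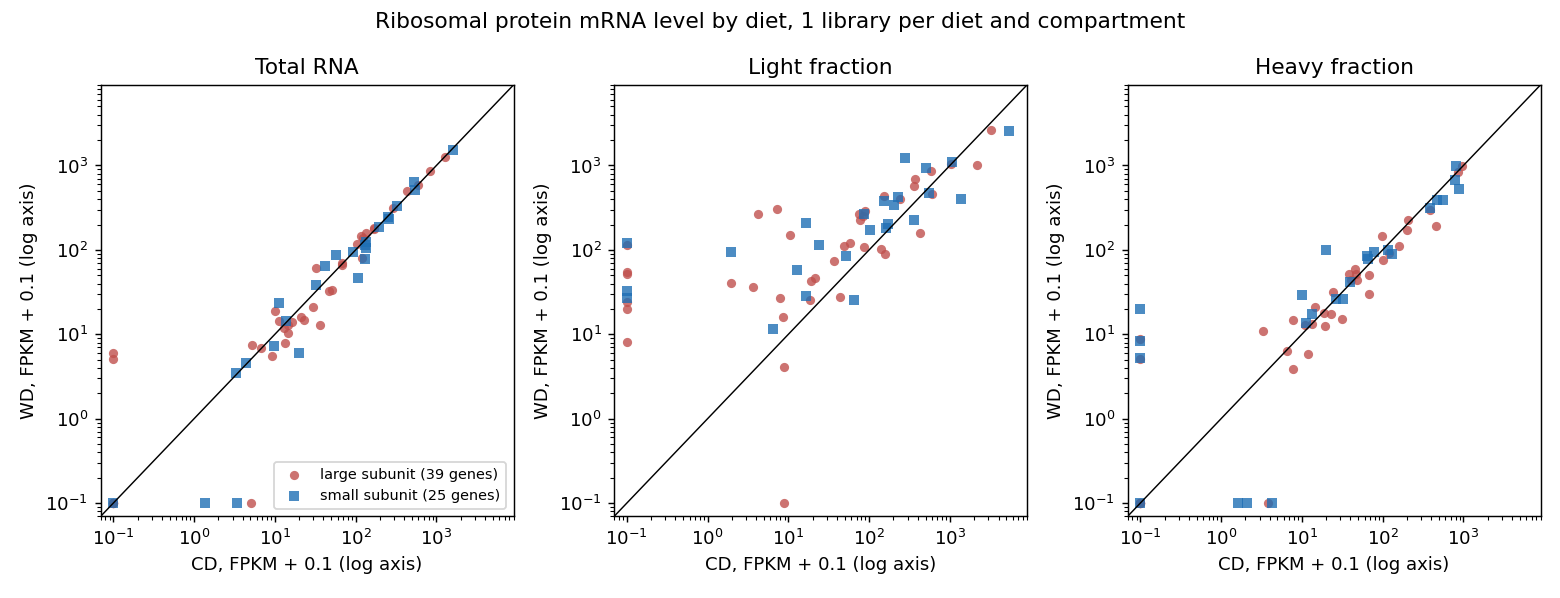
FPKM + 0.1 in the WD (vertical, log axis) against the CD (horizontal, log axis) for 64 ribosomal protein genes in total RNA, the light and the heavy fraction, with large subunit genes as red circles, small subunit genes as blue squares and a line of equal values. Points follow the line in total RNA and the heavy fraction, and points on an edge at 0.1 are genes listed at 0. In the light fraction 49 of 64 lie above the line, 6 of them kept by the WD light fraction alone. So do 34 of the 48 genes above 0 in all 4 fraction libraries.

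The summed light fraction FPKM of the 64 members hardly differed, however, at 20885 in the CD and 20812 in the WD. Over all loci compared the light sums were 676999 and 864715 FPKM, so the members' share was 3.08% in the CD and 2.41% in the WD. Rps29, Rpl41 and Rpl39 together held 51.2% of the members' light sum in the CD and 29.8% in the WD. The other 61 members summed to 10185 FPKM in the CD and 14601 in the WD. In the heavy fraction the sum was 8593 and 7666 FPKM, and in total RNA 9476 and 9465. By subunit, the light sums were 10162 and 11154 FPKM for large and 10723 and 9658 for small members.

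The light fraction ratio was higher for members of middle than of high level. Among 22 members with at least 100 FPKM in total RNA the median log2 ratio was 0.13, and among 25 with 10 to 100 FPKM it was 1.16. Over all loci in the same ranges the medians were -0.16 and -0.05. No median is given for the 17 members below 10 FPKM, since 6 of them were kept by the WD light fraction alone and many rest on the 0.1 FPKM added to entries at 0. Across the 47 members with at least 10 FPKM in total RNA, Pearson's r between log2 total RNA level and log2 light fraction ratio was -0.53 and Spearman's rho was -0.54. Over 3799 other loci of at least that level these were -0.05 and -0.10, and all points share the same libraries.

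**Figure D4:**
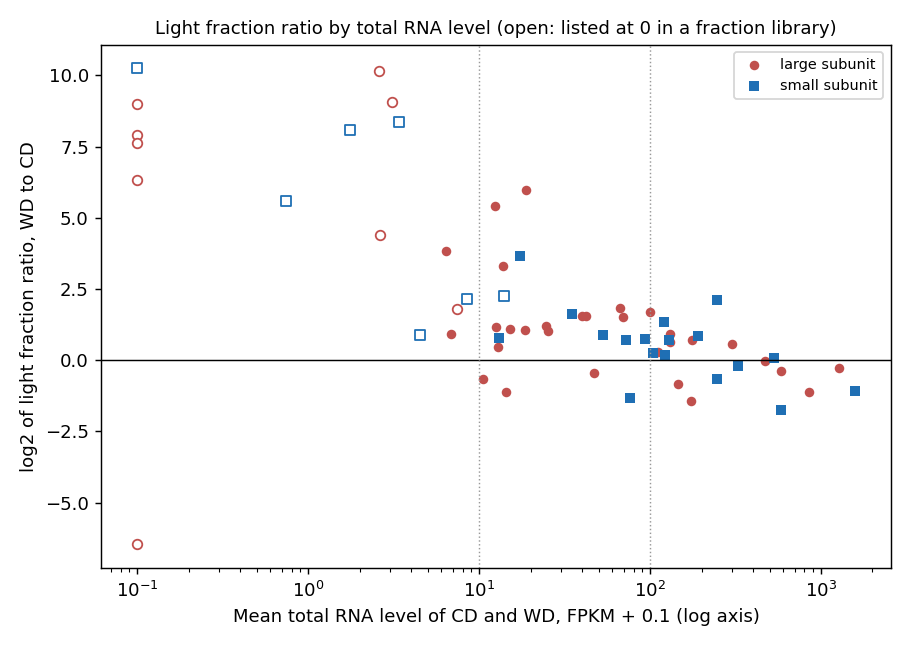
Log2 light fraction ratio, WD to CD (vertical), against the mean total RNA level of both diets in FPKM + 0.1 (horizontal, log axis) for 64 genes, with circles for large and squares for small subunit genes, open where a fraction library is listed at 0, and dotted lines at 10 and 100 FPKM. Genes from 10 to 100 FPKM have a median of 1.16 and those at or above 100 FPKM scatter about 0 with a median of 0.13, while below 10 FPKM 6 of the 17 genes are plotted because of their WD light value alone.

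Ribosome density, which sets both diets' ratios against each other, was lower in the WD for most members, with the lower median in the large subunit. The median log2 density change was -1.14 for large and -0.44 for small subunit members, against -0.02 over all loci. A density ratio of 0.75 or less was found for 39 members, 26 of 39 large (66.7%) and 13 of 25 small (52%), where all loci gave 36.1%. A ratio of at least 1.5 was found for 8, 2 large and 6 small, where all loci gave 27.7%. Among the 48 members above 0 in all 4 fraction libraries the medians were -0.79 for large and -0.35 for small. With libraries rescaled to the same FPKM sum, the medians over all members compared were -0.81 for large and -0.11 for small. With counting error, the density interval lay below 1 for 10 of 40 members, 5 large and 5 small, and above 1 for 0, against 5.81% and 5.34% of 7487 loci.

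At 100 FPKM or more in total RNA, the median log2 density change was -0.08 for 11 large and -0.01 for 11 small members, and 0.13 for all loci at that level. A ratio of 0.75 or less was found for 6 of these 22 and of at least 1.5 for 3, beside 16.4% and 23.7% of loci. Between 10 and 100 FPKM, 19 of 25 members were at most 0.75, beside 27.6% of loci. With the filter on total RNA, 33 of 57 members had a density ratio of at most 0.75 (35.2% of such loci), with medians of -0.89 for large and -0.40 for small members. When total RNA instead of the light fraction served as the denominator, the median density change was 0 for large and -0.12 for small members, and ratios of at most 0.75 and at least 1.5 were found for 19 and 14 members, close to the 31.0% and 26.7% of all loci. For members above 0 in all 4 fraction libraries it was -0.02 and -0.14. The medians of the subunits thus lay closer together than with the light fraction, and members are not replicates, so the difference between the subunits was not tested.

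The lowest density changes of the large subunit were those of Rpl24 (log2 -6.0), Rpl23 (-4.46) and Rpl22l1 (-4.32), all with 1 fragment in the CD light fraction. The highest were those of Rpl29 (0.40), Rpl18 (0.34) and Rpl41 (0.32), and their size was far smaller. In the small subunit the lowest were Rps20 (-3.69), Rps27 (-1.83) and Rps7 (-1.54), and the highest Rps25 (1.01), Rps27l (0.99) and Rps15a (0.42). Rps7 (chr6:47899558-47904163) had 86.7 FPKM in the light and 39.4 in the heavy fraction of the CD and 268 and 42.0 in those of the WD, a density ratio of 0.344 (0.125 to 0.968). Rpl29 had 158 and 67.3 FPKM in the CD and 89.2 and 50.1 in the WD, with a density ratio of 1.32 (0.582 to 2.96). Deeper members with intervals below 1 included Rps16, whose density ratio was 0.521 (0.322 to 0.845), Rps14 with 0.444 (0.289 to 0.683), Rpl26 with 0.455 (0.286 to 0.725) and Rpl11, a binding partner of Mdm2, with 0.252 (0.110 to 0.578).

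Of the stalk proteins, which recruit elongation factors, Rplp0 and Rplp1 were higher in the light fraction of both diets, and Rplp2 was listed at 0. Rplp0, the stalk's base, had 438 and 505 FPKM in total RNA, 1041 and 1033 in the light and 385 and 293 in the heavy fraction, with heavy to light ratios of 0.370 and 0.284. Rplp1 had 125 and 137 FPKM in total RNA, 360 and 565 in the light and 97.9 and 146 in the heavy fraction, and its ratio was 0.272 on the CD and 0.258 on the WD. Both fractions of Rplp1 were higher in the WD, so its ratio hardly differed. Rpsa, with 169 and 200 FPKM in the light and 65.7 and 77.3 in the heavy fraction, had ratios of 0.388 and 0.385. Rps27a, which is made as a fusion with ubiquitin, was at 3.24 and 3.39 FPKM in total RNA, 0 and 32.7 in the light and 0 in both heavy fractions.

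Paralogue-like members did not share one pattern with their relatives. Rpl7l1 had 19.0 and 42.5 FPKM in the light and 22.9 and 17.4 in the heavy fraction, beside 18.6 and 25.6 and 18.9 and 17.6 for Rpl7. Rpl22l1 had 3.57 and 36.1 FPKM in the light and 7.66 and 3.74 in the heavy fraction, while Rpl22 was listed at 0. Rpl36al had 43.8 and 27.7 FPKM in the light and 11.8 and 5.74 in the heavy fraction, and stands on 2 loci. Rpl3 had 87.3 and 107 FPKM in the light and 44.9 and 59.7 in the heavy fraction, and Rpl3l and Rpl39l were listed at 0. Rpl10 and Rpl36a were not analysed here.

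For 10 members (8 large, 2 small) the WD light fraction was at least 10 times every other library, where all loci gave 0.99%, and 6 of these 10 were compared because of that library. Rpl10a, Rpl27, Rpl30 and Rpl36, each of the large subunit and among those 6, were listed at 0 in the other 5 libraries and had 8.02, 51.4, 24.0 and 19.8 FPKM there. Rps19, also one of the 6 and mutated in a human anaemia, had 121 FPKM in the WD light fraction and 4.22 in CD heavy RNA, and was 0 in the others. Rpl17 had 114 FPKM in the WD light fraction, 4.99 in WD total RNA, 3.75 in CD heavy RNA, and was 0 in the others. Rps2, kept by the same library, had 95.1 FPKM in the WD light fraction and at most 2.02 in the others. Rpl27a had 151 FPKM in the WD light fraction and at most 11 in the others, and Rpl23 and Rpl24, described above, complete the 10.

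Other members were missing from several libraries in another way. Rpl37 had 8.74 FPKM in the CD light fraction and 0 elsewhere. Rpl34, at 54.1, 5.99 and 8.80 FPKM in the WD light fraction, total RNA and heavy fraction, was listed at 0 in each CD library. Rps10 had 3.32 FPKM in CD total RNA, 26.8 in the WD light and 5.09 in the WD heavy fraction, and was 0 in the others.

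Some members with an entry at 0 had reads in both light fractions. Rpl6 had 1.84 and 40.6 FPKM in the light fraction of the CD and WD, 5.03 in CD total RNA and 0 in the others. Rpl28 had 7.69 and 27.0 FPKM in the light and 0 and 5.04 in the heavy fraction. Rps24 had 23.7 and 115 FPKM in the light and 0 and 8.29 in the heavy fraction. Rps3a had 12.8 and 57.0 FPKM in the light and 1.53 and 0 in the heavy fraction. Of 17 copies outside the rule, 4 were above 0 in any library, and 3 of these 4 were highest in the WD light fraction. A mean of at least 1 FPKM was met by 2 copies. Rps27a-ps1 had 341 FPKM and Rpl34-ps1 had 170 FPKM in the WD light fraction, and at most 37.2 FPKM elsewhere. A locus named for Rpl19 together with another gene, also outside the rule, was instead highest in the heavy fraction of the WD, with 3.49 and 10.9 FPKM in total RNA, 7.65 and 86.8 in the light and 16.4 and 854 in the heavy fraction. Rps27l3 had 3.48 FPKM in CD total RNA and 0 in the others.

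Members with a pyrimidine run at the annotated start were compared with those without. Among members above 0 in all 4 fraction libraries, with window and locus on the same chromosome, the median log2 CD heavy to light ratio was -1.23 for 19 with a run and -0.81 for 15 without. A value below 0 was found for 17 and 8 of them, beside 3939 of 8588 loci above 0 in all 4 fraction libraries. At a ratio of at most 0.75 the counts were closer, 12 and 8, where all loci compared gave 36.6%. On the WD the medians were -1.93 and -1.56. The median log2 density change was -0.96 with and -1.14 without a run. At 100 FPKM or more in total RNA, 7 members with and 8 without a run had CD medians of -1.43 and -0.91, and their density medians were -0.38 and 0.21, the reverse of the order over all levels.

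Genes that work beside these proteins were described by lists chosen with earlier results known. Fau, which encodes a ubiquitin-like protein fused to a small subunit protein, was listed at 0. Among 16 other TOP mRNAs and translation factors, the median log2 heavy to light ratio was -0.73 on the CD and -1.18 on the WD. Of these 16, 10 and 11 were at most 0.75, where all loci gave 36.6% and 38.5%. Their median log2 light fraction change was 0.05, against 0.97 for the 64 members. For members it was 0.90 with the filter on total RNA, and 0.13 for the 22 with at least 100 FPKM in total RNA. Eef1a1, which carries aminoacyl-tRNA to the ribosome, had 58.2 FPKM in the light fraction of the CD and 823 in that of the WD, while Tpt1, a TOP mRNA, had 380 and 401. Of 19 ribosome assembly factors listed, 14 were compared. Their median log2 heavy to light ratios were above 0, at 1.15 on the CD and 0.45 on the WD, with a median density change of -1.46. The median log2 light fraction change of these factors was 1.58, so a higher WD light fraction was not particular to ribosomal proteins.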

How the data were processed

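Total RNA and RNA of light and heavy gradient fractions from rat liver were depleted of ribosomal RNA by the authors and sequenced as 6 libraries, each pooled from 3 rats. The submitters' processing notes name bcl2fastq, TopHat, Cufflinks, Cuffnorm and the Rnor_6.0 build. Each locus has deposited FPKM values with bounds, and no counts. Cuffnorm scales FPKM between libraries, and reads shared by near-identical copies can be divided or lost, so an entry at 0 gives no level. No low-value filter or pseudocount is given in the sources used here.

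From the deposited FPKM, 33022 loci were read and 10201 were kept, having a symbol, an estimate marked as successful, and 1 FPKM or more on average. Log2 values were taken of FPKM + 0.1. The values 0.75 and 1.5 are those that the study set on its CD to WD comparison of the heavy to light ratio, and here they were put on the inverse, WD to CD, and on ratios within each diet. The members, gene lists and tests were chosen with earlier results of these data known. With 1 library per group no test was made. Members named in the text were, per subunit, the 3 highest and 3 lowest in each heavy to light ratio and in ribosome density (mean of at least 10 FPKM, above 0 in all 4 fractions, 1 locus), the 3 highest in total RNA, Rps18, Rps6, the stalk proteins, Rpsa, Rps27a, members listed at 0 in at least 1 library, and paralogue-like members beside their relatives. Rps14, Rps16, Rpl26, Rpl11 and Rpl17, where no other rule names them, were chosen after their values were seen. Some genes that meet these rules enter the counts and are not reported here by name.

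Fragment numbers were inferred as the whole numbers that explain a gene's FPKM across libraries, each within 0.2% of the value and 0.12 fragment. Of 12459 genes with a level in 2 or more libraries, 81.8% received such numbers, and after a jitter of 1% was put on the values 2.89% did. The inference was tested on simulated data, its numbers are estimates, and multiples would give the same FPKM. Intervals at 95% are Clopper-Pearson and cover counting error only. Promoters were RefSeq's for GRCr8, used for sequence alone. Software was numpy 2.4.6, scipy 1.17.1 and pandas 2.3.3 under Python 3.11.15, with matplotlib 3.10.9 for plots. Alternatives were other pseudocounts (1, 0.01, none), other filters (10 FPKM, none), equal library sums, changes relative to the median locus, symbols on 1 locus, no members at 0, no paralogue-like members, and the heavy fraction over total RNA. A filter of 1 FPKM on total RNA alone was added after seeing the data. A planned relation with protein length was not run, since no protein lengths were used here.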

Additional observations from a re-analysis of the deposited data

Results flagged for a closer look

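Members were marked where the heavy to light ratio was past a threshold in opposite directions in the 2 diets. In 5 of these members the CD ratio was at least 1.5 and the WD ratio at most 0.75, and the difference between the diets was not tested. The log2 heavy to light ratios were 5.27 on the CD and -10.16 on the WD for Rpl17, and 5.43 and -10.24 for Rps19, and both rest on entries at 0 and on the 0.1 FPKM added. For Rpl24 they were 1.66 and -4.33, for Rpl22l1 1.08 and -3.24, and for Rps20 0.68 and -3.0, with at most 3 fragments in either CD fraction. Counted in either direction, 6 of the 64 members (9.4%) were past both thresholds, 1 of them the other way. This share is near the 8.26% of all loci compared.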

How the results depend on the processing

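No paired analysis was possible because each group is 1 library. Of 190 values recomputed under alternatives, 178 moved by less than the spread of the members (within the binomial interval of a median, or within 1.5 times a count) and 12 moved by more. These intervals run over members that share libraries, so they measure no error. For large minus small members on the CD the interval was -1.48 to 2.21, so almost any value counted as unmoved. That difference was -0.03 in the main setting. It ranged from -0.14 without paralogue-like members to 0.50 with symbols on 1 locus, so its sign depended on the setting. No value changed sign where its interval was clear of 0. When heavy RNA was divided by total RNA, the median log2 ratio on the WD was 0 for large and -0.10 for small members and the density change 0 for large members. Members at most 0.75 numbered 22 on the WD (all loci 35.1%), members at least 1.5 numbered 16 on the CD (29.3%) and 11 on the WD (27.7%), and for density 19 were at most 0.75 (31.0%) and 14 at least 1.5 (26.7%). Density ratios of at least 1.5 were found for 4 members with no pseudocount, for 5 with a mean of at least 10 FPKM, for 5 with symbols on 1 locus, and for 4 without members at 0 in a fraction, against 8. In the last 4 settings fewer members were counted, and the light fraction is absent from the other. With the filter on total RNA alone, chosen after seeing the data, none of 16 values moved by more. Depth limits the members below 10 FPKM, many of which had 1 to 3 fragments in the CD fractions.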
